A study of Mus musculus with 12 samples.

Results

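The 8 genes described here belong to the programme of Th17 cells, and they were taken by symbol (Rora, Il17a, Il17f, Il22, Il23r, Ccr6, Ahr and Il1r1) from 35492 gene symbols measured in every library. RNA of mouse CD4+ T cells was sequenced in 12 libraries, 3 in each of 4 groups, from C57BL/6J mice aged 7 weeks. Tfh_TILS cells carried CD4, CXCR5 and PD1 on their surface and were sorted out of tumours of MC38, a mouse colon cancer line. Tfh_OTII and Tfh_Vitro were naive CD4+ cells cultured on plates coated with antibodies to CD3 and CD28, with IL-6 (50 ng/ml), IL-21 (50 ng/ml) and blocking antibodies to IL-4, IFNγ and TGFβ (10 µg/ml each). Tfh_OTII cells came from OT-II mice, a strain with a T cell receptor transgene that recognises ovalbumin, and Tfh_Vitro cells from wild-type mice. Th1_Vitro cells were grown on the same coated plates with IL-12 (10 ng/ml) and an antibody blocking IL-4 (10 µg/ml). The protocol text gives 48 h for both kinds of culture, while the library titles give 48 h for Tfh_OTII and 24 h for Tfh_Vitro and Th1_Vitro, so genotype and time cannot be told apart between the 2 Tfh cultures. Each extraction used 300000 cells, and nothing in the labels says whether libraries of a group came from separate animals or cultures, so the p-values reflect how far these libraries differ, possibly for technical reasons alone.

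Th17 cells are CD4+ T cells that defend mucosal surfaces against bacteria and fungi and take part in autoimmune inflammation. IL-6 with TGFβ starts their differentiation through STAT3 and nuclear receptors such as RORα, IL-1 and IL-23 sustain it, and the cytokines IL-17A, IL-17F and IL-22 carry it out. T follicular helper (Tfh) cells, which help B cells in germinal centres, share IL-6, IL-21 and STAT3 with this pathway, whereas Th1 cells form under IL-12 and make IFNγ.

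Levels are given in TPM, the share of a fixed sum that each transcript takes after allowing for its length, and differences in log2(TPM + 1). A library's TPM therefore depend on its most abundant transcripts. The predicted gene Gm10800 alone took 23.7 to 42.7% of the TPM in Th1_Vitro, against at most 12.4% in any other library, and 19.5 to 41.4% of symbols were at 0 in Th1_Vitro. The median difference over all 23308 genes tested was 0.87 for Tfh_TILS, 0.79 for Tfh_OTII and 0.78 for Tfh_Vitro against Th1_Vitro as deposited, and 0.15, 0.12 and 0.14 after median-of-ratios scaling. For this reason a gene is said to have risen or fallen only where limma gave a Benjamini-Hochberg adjusted p under 0.05 in the same direction both as deposited and after that scaling. Libraries of the sort and the cultures carried the T cell receptor chain gene Cd3e at 37.3 TPM or more. Cxcr5 and Pdcd1 (PD1), the genes of the sort, reached 11.0 to 16.3 and 26.2 to 40.1 TPM in Tfh_TILS and 0.872 to 2.33 and 3.29 to 14.3 TPM in Th1_Vitro. In bulk RNA, fewer cells expressing a gene and less of it per cell cannot be told apart.

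Tfh_TILS replicate 2 stood apart from the other libraries of its group. Its 10 macrophage and monocyte markers summed to 807 TPM, against 80.1 and 210.0 TPM in Tfh_TILS replicates 1 and 3, 9.64 to 31.1 TPM in Tfh_OTII, 21.1 to 28.1 TPM in Tfh_Vitro and 9.91 to 12.2 TPM in Th1_Vitro. Its 6 neutrophil markers summed to 497 TPM, against 18.0 and 96.0 TPM in Tfh_TILS replicates 1 and 3. Its Cd3d, Cd3e and Cd3g also summed highest, to 872 TPM, against 514 and 526 TPM in replicates 1 and 3. Its regulatory T cell markers summed to 1908 TPM, against 997 and 1138 TPM. Gm10800 took 2.40% of its TPM, against 12.4 and 9.89% in replicates 1 and 3. Among Tfh_TILS libraries replicate 2 held the highest Rora, Ahr and Il1r1 and the lowest Il17a, Il22 and Il23r. Calls and counts of calls in Tfh_TILS that were lost or moved without it are given also without it.

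Rora encodes RORα, a nuclear receptor that drives Th17 genes and is also used by innate lymphoid cells. Its gene lies on mouse chr9:68653786-69388246 (plus strand, GRCm38, GENCODE M21) and overlaps an antisense transcript, Gm15511. Rora had 16.5, 49.4 and 25.0 TPM in Tfh_TILS, 10.2, 5.21 and 7.14 TPM in Tfh_OTII, 12.7, 10.4 and 13.8 TPM in Tfh_Vitro, and 2.26, 1.30 and 2.15 TPM in Th1_Vitro. No group's range overlapped another's, and the order ran from Tfh_TILS through Tfh_Vitro and Tfh_OTII to Th1_Vitro. Of the 8 genes, Rora was the one with separate ranges in all 6 pairs of groups, on both scales. Separate ranges in a single pair were common, at 23.7 to 56.4% of all genes tested as deposited and 22.0 to 33.9% after scaling. The share of genes separate in all 6 pairs was not computed.

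Il17a and Il17f encode IL-17A and IL-17F, which act on epithelial and stromal cells to recruit neutrophils. They are neighbours, Il17a at chr1:20730905-20734496 (plus strand) and Il17f at chr1:20777146-20790617 (minus strand), with 42649 bases between them. Il17a had 10.9, 3.46 and 8.01 TPM in Tfh_TILS, 3.19, 1.31 and 0.700 TPM in Tfh_OTII, 7.33, 3.26 and 5.99 TPM in Tfh_Vitro, and 0, 0.659 and 0 TPM in Th1_Vitro. As deposited, the Tfh_TILS and Tfh_Vitro ranges overlapped, while Tfh_OTII lay below both and above Th1_Vitro. After scaling, Tfh_OTII, from 0.663 TPM, overlapped Th1_Vitro, which reached 1.40 TPM. Il17f had 11.9, 12.3 and 25.4 TPM in Tfh_TILS, 15.1, 8.71 and 4.52 TPM in Tfh_OTII, 9.98, 13.0 and 17.3 TPM in Tfh_Vitro, and 2.91, 3.22 and 5.26 TPM in Th1_Vitro. Neighbouring groups overlapped in every step of its order. Il17f was above the highest of 11 fibroblast and epithelial markers, genes that T cells should lack, in all 12 libraries. Il17a was so in 2 of 3 Tfh_TILS, 0 of 3 Tfh_OTII, 2 of 3 Tfh_Vitro and 0 of 3 Th1_Vitro libraries. That highest marker, taken within each library, was at 6.17 to 9.46 TPM in Tfh_TILS and 3.33 to 4.88 TPM in Tfh_OTII. It was at 4.04 to 5.86 TPM in Tfh_Vitro and 2.17 to 2.64 TPM in Th1_Vitro. The bar thus differed between groups, so these counts do not compare detection between them.

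Il22 encodes IL-22, a cytokine of Th17, Th22 and innate lymphoid cells that acts on epithelium (chr10:118204942-118210047, plus strand). Il22 had 3.11, 2.05 and 2.58 TPM in Tfh_TILS, 6.34, 5.68 and 4.37 TPM in Tfh_OTII, 17.1, 11.6 and 12.9 TPM in Tfh_Vitro, and 0, 4.19 and 4.76 TPM in Th1_Vitro. It was highest in Tfh_Vitro, and Tfh_TILS, the highest group for Rora, lay below every library of both Tfh cultures. The Th1_Vitro libraries spanned the Tfh_TILS range, with replicate 1 at 0. Il22 exceeded the highest of the 11 fibroblast and epithelial markers in 0 of 3 Tfh_TILS libraries. It did so in 3 of 3 libraries of each Tfh culture and 2 of 3 of Th1_Vitro. In every culture that highest marker was lower than in Tfh_TILS, so these counts are not like measures.

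Among receptors, Ccr6 encodes the receptor for CCL20 that brings Th17 cells to mucosa (chr17:8236043-8257141, plus strand). Ccr6 had 19.0, 24.1 and 25.0 TPM in Tfh_TILS, 15.0, 6.59 and 5.74 TPM in Tfh_OTII, 9.85, 16.7 and 11.1 TPM in Tfh_Vitro, and 6.15, 3.04 and 0.235 TPM in Th1_Vitro. Tfh_TILS lay above every culture, and the cultures overlapped their neighbours in the order. The 8 B cell markers were also highest in Tfh_TILS, summing to 143 to 162 TPM. They summed to 44.5 to 57.0 TPM in Tfh_OTII, 73.6 to 95.9 in Tfh_Vitro and 59.8 to 98.7 in Th1_Vitro. The part of B cell transcripts in Ccr6 was not tested. Ahr encodes the aryl hydrocarbon receptor, a ligand-activated factor needed for Il22 in Th17 cells (chr12:35497974-35535038, minus strand, overlapped on the opposite strand by Gm48236). Ahr had 6.60, 11.0 and 6.96 TPM in Tfh_TILS, 4.34, 3.73 and 5.25 TPM in Tfh_OTII, 5.09, 4.17 and 5.78 TPM in Tfh_Vitro, and 1.02, 0.876 and 2.39 TPM in Th1_Vitro. As deposited, the 2 Tfh cultures overlapped, Tfh_TILS lay above them and Th1_Vitro below. After scaling, Th1_Vitro, at up to 3.58 TPM, overlapped Tfh_OTII, which began at 3.01 TPM. Ahr exceeded the highest fibroblast or epithelial marker in 2 of 3 Tfh_TILS, 2 of 3 Tfh_OTII, 1 of 3 Tfh_Vitro and 0 of 3 Th1_Vitro libraries. That bar too was highest in Tfh_TILS and lowest in Th1_Vitro. Il23r, a subunit of the IL-23 receptor (chr6:67422932-67491855, minus strand), and Il1r1, the signalling receptor for IL-1 (chr1:40225080-40317257, plus strand, overlapping Gm38070), were scarce. Il23r had 1.27, 0.592 and 1.75 TPM in Tfh_TILS, 2.65, 1.53 and 1.48 TPM in Tfh_OTII, 1.50, 2.30 and 1.87 TPM in Tfh_Vitro, and 0.131, 0.341 and 0.102 TPM in Th1_Vitro. Il1r1 had 1.19, 3.25 and 1.65 TPM in Tfh_TILS, 2.64, 0.840 and 1.67 TPM in Tfh_OTII, 1.42, 2.12 and 1.51 TPM in Tfh_Vitro, and 0.431, 0.441 and 0.210 TPM in Th1_Vitro. As deposited, both stood apart in Th1_Vitro alone, where they were lowest. Neither exceeded the highest of the 11 fibroblast and epithelial markers in any library, so their levels lie within what genes foreign to T cells reached in these files.

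**Figure D1:**
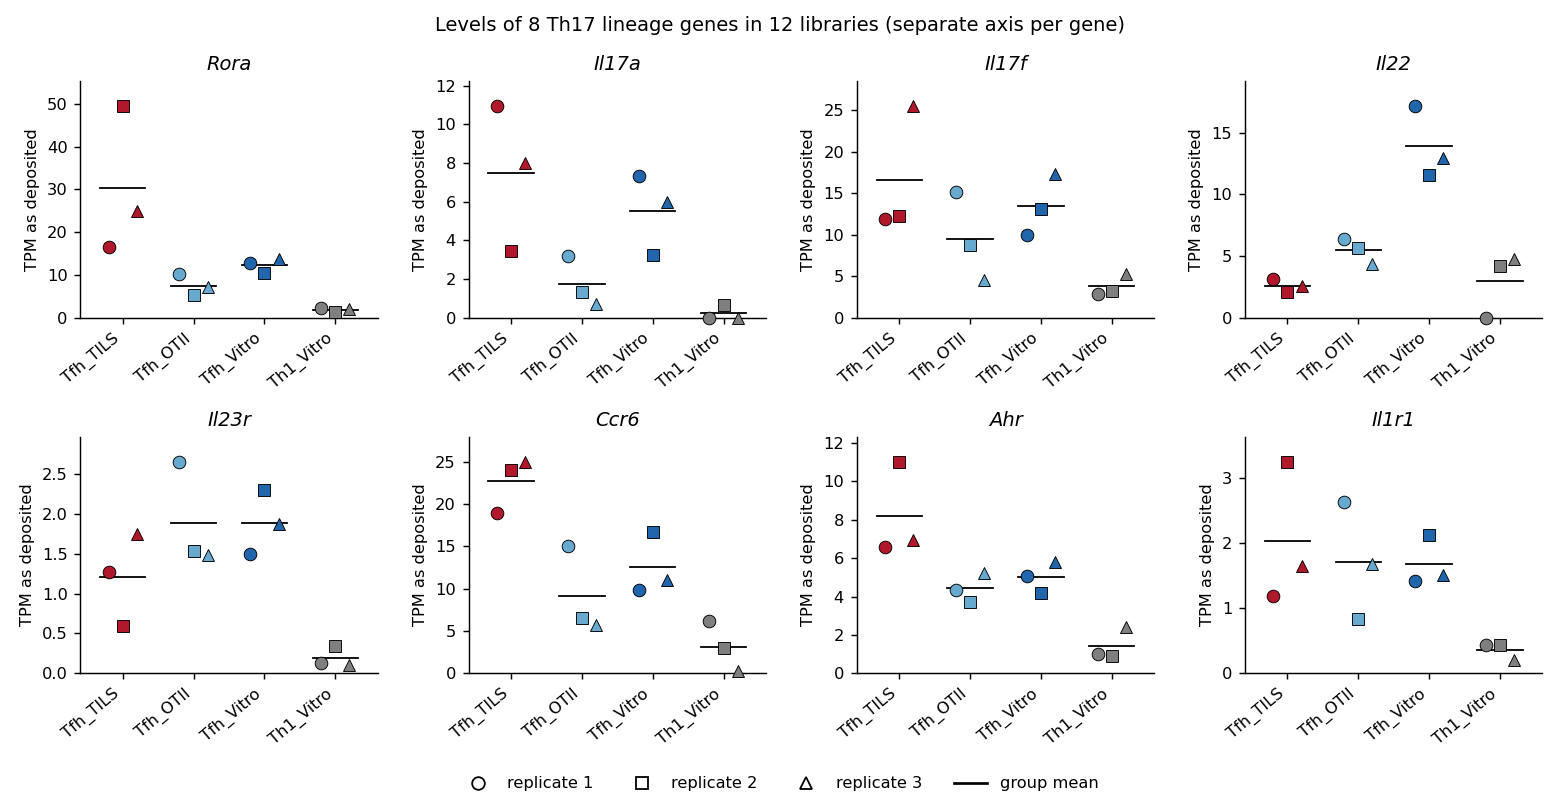
Deposited TPM of the 8 genes, each panel with its own linear axis from 0. Symbols are libraries, marked by replicate number, and lines are group means. Rora separates all 4 groups, Il22 is highest in Tfh_Vitro, and the square of Tfh_TILS marks replicate 2, at 49.4 TPM for Rora.

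The upstream sequences of 4 genes are shown because they hold the letters AGGTCA, the core recognised by RORα. RefSeq (GRCm38.p6) gives windows of 300 bases, from 250 before to 50 after a gene's start, for 7 of the 8 genes, 9 windows in all. Written 5′ to 3′ on the gene's strand, with AGGTCA or its reverse complement TGACCT in capitals, they read as follows.
Il17a (chr1:20730655-20730954, plus strand): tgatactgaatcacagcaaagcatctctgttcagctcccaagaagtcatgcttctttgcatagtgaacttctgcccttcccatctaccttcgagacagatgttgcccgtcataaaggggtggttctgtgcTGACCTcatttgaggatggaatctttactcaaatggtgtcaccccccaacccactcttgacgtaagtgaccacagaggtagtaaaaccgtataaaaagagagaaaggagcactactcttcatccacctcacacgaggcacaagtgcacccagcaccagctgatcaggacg
Il17f (chr1:20784221-20784520, minus strand): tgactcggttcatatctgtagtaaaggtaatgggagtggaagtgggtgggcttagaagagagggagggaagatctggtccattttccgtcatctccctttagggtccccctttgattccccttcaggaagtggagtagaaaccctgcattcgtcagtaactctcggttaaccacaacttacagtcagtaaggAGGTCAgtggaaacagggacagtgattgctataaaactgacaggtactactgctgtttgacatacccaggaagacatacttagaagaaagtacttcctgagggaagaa
Il23r (chr6:67491806-67492105, minus strand): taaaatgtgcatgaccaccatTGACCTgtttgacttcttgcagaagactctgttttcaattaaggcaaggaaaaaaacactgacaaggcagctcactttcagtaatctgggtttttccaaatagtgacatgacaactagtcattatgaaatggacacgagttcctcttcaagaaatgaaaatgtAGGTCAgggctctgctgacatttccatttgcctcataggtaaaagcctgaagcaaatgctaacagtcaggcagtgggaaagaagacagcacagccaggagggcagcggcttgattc
Ccr6 (chr17:8235793-8236092, plus strand): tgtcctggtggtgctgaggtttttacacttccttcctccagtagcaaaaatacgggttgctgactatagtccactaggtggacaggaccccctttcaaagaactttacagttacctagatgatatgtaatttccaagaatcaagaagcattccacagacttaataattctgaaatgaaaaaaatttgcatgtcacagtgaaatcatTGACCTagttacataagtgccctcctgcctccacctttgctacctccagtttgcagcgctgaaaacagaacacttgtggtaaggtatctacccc
On either strand, AGGTCA occurs in the windows of these 4 of 7 genes and in 16.3% of all 32851 RefSeq windows of that length. It starts at -120 from the RefSeq start site for Il17a, -58 for Il17f, -229 and -66 for Il23r, and -44 for the first Ccr6 window. The Il17f window lies inside the span that GENCODE gives the gene, chr1:20777146-20790617, so the 2 annotations start Il17f at different sites. The core of AHR sites, GCGTG, was found for 2 of 7 genes, Rora and Il1r1, and in 32.4% of all windows. The STAT spacing TTCNNNGAA was found for 1 of 7, at -157 and -120 of Ccr6, and in 8.30% of all windows. The 7 genes held 9 windows, with 2 each for Ccr6 and Il1r1, so these counts by gene and shares by window are not like measures. The Il22 window held none of the 3 motifs. A match describes letters, not binding, and the averages of the 4 genes that share AGGTCA did not order the groups alike. Il17a, Il17f and Ccr6 averaged highest in Tfh_TILS, whereas Il23r averaged 1.20 ± 0.58 TPM there against 1.89 ± 0.40 TPM in Tfh_Vitro (SD, n = 3 each), a difference that was not called.

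Tumour Tfh cells compared with the Th1 culture had more Rora, Il17a, Ccr6 and Ahr RNA. These 4 of the 8 genes rose, against 10.2% of all genes tested that were called higher on both scales and 0.545% called lower. Rora averaged 30.3 ± 17.1 TPM in Tfh_TILS and 1.90 ± 0.53 TPM in Th1_Vitro (SD, n = 3 each), a difference of 3.31 ± 0.36 (moderated SE, limma adjusted p = 4.01e-05), or 2.36 ± 0.30 after scaling (adjusted p = 0.000596). Without Tfh_TILS replicate 2 it was 2.01 after scaling (adjusted p = 0.0019). Il17a differed by 2.72 ± 0.44 as deposited (limma adjusted p = 0.000375) and by 2.24 ± 0.47 after scaling (adjusted p = 0.00668). These 2 calls held with any library of the pair left out and when values were set relative to the CD3 chain genes.

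Ccr6 and Ahr rose less firmly. Ccr6 differed by 2.84 ± 0.52 as deposited and 1.89 ± 0.60 after scaling (limma adjusted p = 0.0459), and its scaled call was lost without Tfh_TILS replicate 1, 2 or 3 (adjusted p = 0.0814, 0.106 and 0.112) or without Th1_Vitro replicate 3 (0.95, adjusted p = 0.0735). Ahr differed by 1.94 ± 0.29 as deposited and 1.10 ± 0.27 after scaling (limma adjusted p = 0.0161), and that call was lost without Tfh_TILS replicate 2 (0.96, adjusted p = 0.065). Il17f, Il23r and Il1r1 were called as deposited only, where 49.3% of all genes tested were called higher. After scaling they differed by 0.78 ± 0.33, 0.50 ± 0.28 and 0.57 ± 0.30. Il22 was not called on either scale, at 0.20 ± 0.51 as deposited and -0.53 ± 0.64 after scaling. Without Th1_Vitro replicate 1, which listed Il22 at 0, the scaled difference was -1.58 (limma adjusted p = 0.00383). Over the 8 genes the median difference was 0.94 after scaling, beside 0.15 over all genes tested.

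The wild-type Tfh culture compared with the Th1 culture had more Rora, Il17a and Il23r RNA. These 3 of 8 genes rose, against 8.65% of all genes tested that were called higher on both scales. Rora averaged 12.3 ± 1.74 TPM in Tfh_Vitro and 1.90 ± 0.53 TPM in Th1_Vitro (SD, n = 3 each), a difference of 2.20 ± 0.36 as deposited and 1.39 ± 0.30 after scaling (limma adjusted p = 0.00968). Il17a differed by 2.41 ± 0.44 as deposited and 2.04 ± 0.47 after scaling (limma adjusted p = 0.0124), and the scaled call was lost without Tfh_Vitro replicate 1 or 3 (adjusted p = 0.0525 and 0.0504). Il23r differed by 1.28 ± 0.29 as deposited and 0.94 ± 0.28 after scaling (limma adjusted p = 0.0431). Its scaled call was lost in 5 of 6 fits that left out 1 library, all but the one without Th1_Vitro replicate 2, with adjusted p up to 0.166 without Tfh_Vitro replicate 2. As deposited all 8 genes were called higher, where 41.1% of all genes tested were too. A scaling relative to the CD3 chain genes was added after the data were seen. On it Il17a alone was called, at 1.70 (limma adjusted p = 0.0366). Rora was at 0.61 (adjusted p = 0.165), and Il17f and Ahr were slightly negative. The median difference over all genes tested was -0.50 on that scale.

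The OT-II Tfh culture compared with the Th1 culture gave 1 call among the 8 genes, Il23r. A count of 1 of 8 is near the 12.2% of all genes tested that were called higher on both scales, so it marks nothing particular to these genes. Il23r averaged 1.89 ± 0.66 TPM in Tfh_OTII and 0.192 ± 0.130 TPM in Th1_Vitro (SD, n = 3 each), a difference of 1.26 ± 0.29 as deposited and 0.89 ± 0.28 after scaling (limma adjusted p = 0.0407). The scaled call was lost in 5 of 6 fits that left out 1 library, all but the one without Th1_Vitro replicate 2, with adjusted p up to 0.101 without Tfh_OTII replicate 1. Rora, Ccr6, Ahr and Il1r1 were called as deposited only, where 42.7% of all genes tested were called higher. All 8 genes had positive log2 differences on both scales. For Il22 the scaled Th1_Vitro values were 0, 8.87 and 7.13 TPM, against 4.14 to 4.83 TPM in Tfh_OTII. Its scaled mean was higher in Th1_Vitro, at 5.33 against 4.46 TPM. Relative to the CD3 chain genes Il17f, Il22, Rora, Ccr6, Ahr and Il1r1 were negative and none was called. On that scale the median difference over all genes tested was -0.66, with 1024 genes called higher and 8724 lower.

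Tumour Tfh cells compared with the OT-II Tfh culture had more Rora and Il17a RNA. These 2 of 8 genes rose, against 6.75% of all genes tested that were called higher on both scales and 6.84% called lower. Rora averaged 30.3 ± 17.1 TPM in Tfh_TILS and 7.53 ± 2.53 TPM in Tfh_OTII (SD, n = 3 each), a difference of 1.78 ± 0.36 as deposited (limma adjusted p = 0.00511) and 1.67 ± 0.30 after scaling (adjusted p = 0.00301). Without Tfh_TILS replicate 2 it was 1.32 after scaling (adjusted p = 0.0102). Il17a averaged 7.46 ± 3.76 TPM in Tfh_TILS and 1.73 ± 1.30 TPM in Tfh_OTII (SD, n = 3 each), a difference of 1.62 ± 0.44 (limma adjusted p = 0.0247), or 1.50 ± 0.47 after scaling (adjusted p = 0.047). The deposited Il17a call was lost without Tfh_TILS replicate 1 or 3 (adjusted p = 0.0877 and 0.0804) and without Tfh_OTII replicate 2 or 3 (0.082 and 0.11). Ccr6 and Ahr had separate ranges, higher in Tfh_TILS, and Il22 a separate range, lower in Tfh_TILS, but none of the 3 was called, and 35.0% of all genes tested had separate ranges.

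Tumour Tfh cells compared with the wild-type Tfh culture gave no call among the 8 genes by limma on either scale. Over all genes tested, 1.81% were called on both. By the looser rule of an unadjusted p under 0.05, 2 of the 8 passed on each scale. The share of all genes under that rule was not computed, so the 2 cannot be weighed. Those 2 ran in opposite directions. Rora differed by 1.11 ± 0.36 (limma adjusted p = 0.148) and, without Tfh_TILS replicate 2, by 0.69 (adjusted p = 0.424), though it was called without Tfh_TILS replicate 1 (1.46, adjusted p = 0.0377). Il22 averaged 2.58 ± 0.53 TPM in Tfh_TILS and 13.9 ± 2.89 TPM in Tfh_Vitro (SD, n = 3 each), a difference of -2.05 ± 0.51 (limma adjusted p = 0.0615). Rora, Ccr6 and Ahr lay higher in Tfh_TILS without overlap, and Il22 lower, where 23.7% of all genes tested had separate ranges.

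The OT-II Tfh culture compared with the wild-type Tfh culture gave no call among the 8 genes by limma on either scale either. Over all genes tested, 1.81% were called on both. At an unadjusted p under 0.05, 2 of the 8 passed on each scale, and the share of all genes under that looser rule was not computed. All 8 differences were negative, between -0.02 and -1.30 as deposited. Rora, Il17a and Il22 were lower in Tfh_OTII without overlap, where 29.1% of all genes tested had separate ranges. Il17a, at -1.30 ± 0.44 (limma adjusted p = 0.17), and Il22, at -1.20 ± 0.51 (adjusted p = 0.328), lay furthest from 0. Tfh_OTII replicate 1 held the highest value of its group for 7 of the 8 genes, all but Ahr, and listed 9.92% of symbols at 0, against 17.9 and 23.9% in replicates 2 and 3. The part of that in the genes' levels was not tested.

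**Figure D2:**
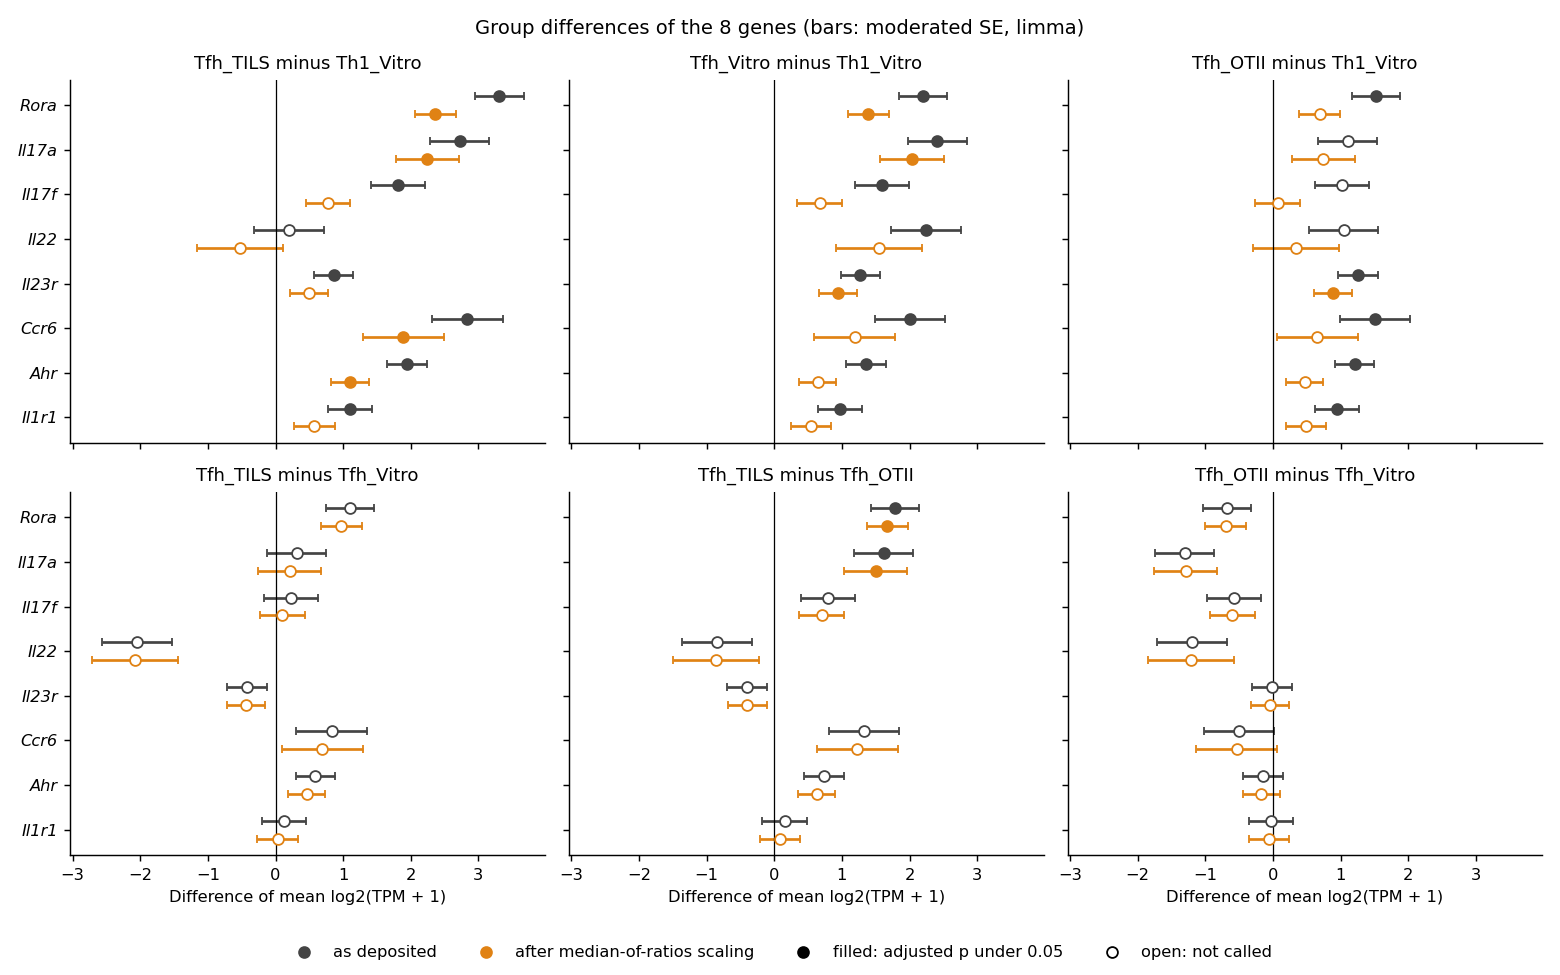
Differences of the 8 genes in each pair of groups, as deposited and after median-of-ratios scaling, on the log2(TPM + 1) axis, with bars of 1 moderated SE and filled points where limma's adjusted p was under 0.05. The top row is against Th1_Vitro, where scaling moved every point left. Il22 stands at -2.05 between Tfh_TILS and Tfh_Vitro.

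Within a library, the 3 cytokine genes are compared free of scaling between libraries, a measure chosen after the values were seen and so given without a test. Il22 made up 7.17 to 12.0% of the summed TPM of Il17a, Il17f and Il22 in Tfh_TILS, 25.7 to 45.6% in Tfh_OTII, 35.6 to 49.7% in Tfh_Vitro and 0 to 51.9% in Th1_Vitro. Il17f was the largest of the 3 in all Tfh_TILS libraries, at 45.9 to 70.6%. Their sum was 17.8 to 36.0 TPM in Tfh_TILS, 9.59 to 24.7 TPM in Tfh_OTII, 27.9 to 36.3 TPM in Tfh_Vitro and 2.91 to 10.0 TPM in Th1_Vitro.

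**Figure D3:**
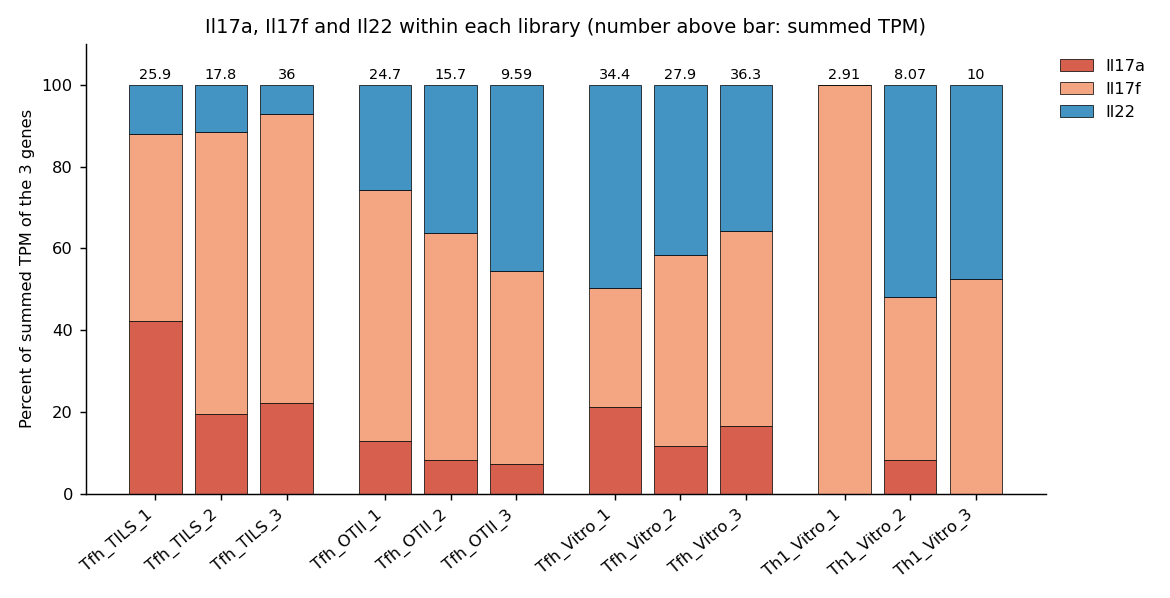
Stacked bars give the percent of the summed TPM of Il17a, Il17f and Il22 held by each gene in every library, with the sum in TPM above each bar. The Il22 part is 7.17 to 12.0% in the 3 Tfh_TILS libraries and 35.6 to 49.7% in the 3 Tfh_Vitro libraries.

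Set against 100 TPM of the CD3 chain genes Cd3d, Cd3e and Cd3g, Rora stood at 3.22 to 5.67 TPM in Tfh_TILS, 0.621 to 1.27 in Tfh_OTII, 1.54 to 2.11 in Tfh_Vitro and 0.827 to 1.66 in Th1_Vitro. Tfh_TILS remained above every culture on that measure, while Th1_Vitro overlapped both Tfh cultures. Ahr stood at 1.26 to 1.32 TPM in Tfh_TILS on the same measure, a narrow range that included replicate 2, against 0.444 to 0.569 in Tfh_OTII, 0.620 to 0.887 in Tfh_Vitro and 0.598 to 0.918 in Th1_Vitro. The CD3 chain genes summed to 136 to 261 TPM in Th1_Vitro and 514 to 923 TPM elsewhere, so they differ between groups themselves.

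Other Th17 transcription factors did not all follow Rora. Of 11 listed factors and cofactors, 5 were higher in Tfh_TILS against Th1_Vitro, where 10.2% of all genes tested were. In Tfh_TILS against Tfh_OTII 4 were higher, beside 6.75% of all genes, and in Tfh_TILS against Tfh_Vitro 1 was, beside 0.965%. Without Tfh_TILS replicate 2 each of the 3 counts was 1, and the gene was Maf each time. Over all genes tested, calls higher after scaling fell too without that library. They went from 2378 to 1525 against Th1_Vitro, from 1621 to 1124 against Tfh_OTII and from 246 to 133 against Tfh_Vitro. Without Tfh_TILS replicate 3 they were 1732, 1270 and 112. Maf encodes c-MAF, an inducer of Il10 and Il21 that Tfh cells also use. Maf had 43.4, 189 and 65.3 TPM in Tfh_TILS, 3.73, 3.34 and 2.22 TPM in Tfh_OTII, 18.3, 13.2 and 26.8 TPM in Tfh_Vitro, and 1.46, 1.42 and 1.54 TPM in Th1_Vitro. Replicate 2 was the highest of its group. Against Tfh_Vitro, Maf differed by 2.07 as deposited (limma adjusted p = 0.0283) and by 1.46 without replicate 2 (adjusted p = 0.0467), and the call was lost without Tfh_TILS replicate 3 (0.0668) or without Tfh_Vitro replicate 1, 2 or 3 (0.117, 0.171 and 0.0566). Maf fell in Tfh_OTII against Tfh_Vitro, by 2.28 ± 0.43 on the log2 scale (limma adjusted p = 0.0156), a call lost without Tfh_Vitro replicate 3 (0.113) or Tfh_OTII replicate 3 (0.0816). Runx1, Nfkbiz and Sgk1 rose in Tfh_TILS against both Tfh_OTII and Th1_Vitro, and none of the 3 was called on both scales without Tfh_TILS replicate 2. In Tfh_Vitro against Th1_Vitro, 2 of the 11 were higher, Fosl2 and Maf, beside 8.65% of all genes. The scaled call of Fosl2 (limma adjusted p = 0.0489) was lost in every fit that left out 1 library of the pair except the one without Th1_Vitro replicate 3 (adjusted p up to 0.14). In Tfh_OTII against Th1_Vitro, 8 of the 11 were called higher as deposited, where 42.7% of all genes were, but not after scaling.

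Of 14 genes for upstream cytokine receptors and their signalling, 3 rose in Tfh_TILS against Tfh_Vitro, beside 0.965% of all genes tested. Against Tfh_OTII 5 rose, beside 6.75%, and against Th1_Vitro 4 rose, beside 10.2%. Without Tfh_TILS replicate 2 these counts were 1, 3 and 3. With any 1 library left out they were 0 to 3, 3 to 4 and 3 to 4. Without replicate 2, genes called higher after scaling numbered 133, 1124 and 1525 over all tested, against 246, 1621 and 2378 with it. Tgfbr1, a chain of the TGFβ receptor, averaged 61.7 TPM in Tfh_TILS, 22.6 TPM in Tfh_OTII, 26.8 TPM in Tfh_Vitro and 11.6 TPM in Th1_Vitro. Il1r2, the decoy receptor for IL-1, had 46.2, 248 and 74.5 TPM in Tfh_TILS, 9.93, 5.74 and 4.29 TPM in Tfh_OTII, 19.5, 13.9 and 23.6 TPM in Tfh_Vitro, and 1.55, 2.66 and 2.08 TPM in Th1_Vitro. Il1rn, the IL-1 receptor antagonist, had 32.6, 808 and 178 TPM in Tfh_TILS and at most 7.33 TPM in any culture library. Replicate 2 was highest for both, as it was for the macrophage and neutrophil markers, and the part of myeloid transcripts in Il1r2 and Il1rn was not tested. Without replicate 2, Il1r2 still differed from Th1_Vitro by 3.37 after scaling (limma adjusted p = 0.000199), while its deposited call against Tfh_Vitro was lost (1.61, adjusted p = 0.0509). The signalling receptor gene Il1r1 stayed at or under 3.25 TPM throughout.

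Of 8 other cytokine and chemokine genes of the programme, 3 rose and 1 fell in Tfh_TILS against Tfh_OTII, beside 6.75% and 6.84% of all genes tested. With any 1 library left out 2 to 4 rose, the 4 without Tfh_TILS replicate 2. Over all genes tested, 808 to 1375 were called higher after scaling in those fits, against 1621 with all libraries. Il21, made by Tfh and Th17 cells, had 9.25, 5.28 and 6.14 TPM in Tfh_TILS, 66.8, 71.4 and 71.3 TPM in Tfh_OTII, 97.8, 92.8 and 75.1 TPM in Tfh_Vitro, and 1.49, 5.88 and 7.69 TPM in Th1_Vitro. Il21 was thus low in Tfh_TILS, as Il22 was, and fell there, with differences of -3.53 ± 0.38 against Tfh_Vitro (limma adjusted p = 0.000938) and -3.20 ± 0.38 against Tfh_OTII (adjusted p = 0.000187). Ccl20, the ligand of CCR6, had 8.57, 0.882 and 6.81 TPM in Tfh_TILS and 1.34, 0.526 and 0 TPM in Tfh_OTII, so that replicate 2 of Tfh_TILS lay within the Tfh_OTII range. It rose against Tfh_OTII by 1.77 ± 0.52 (limma adjusted p = 0.0367), and without that library by 2.36 after scaling (adjusted p = 0.00224). The deposited call was lost without Tfh_TILS replicate 1 or 3 (0.129 each) or Tfh_OTII replicate 2 or 3 (0.095 and 0.146).

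Of 8 tested genes for AHR partners, chaperones and targets, 3 rose and 1 fell in Tfh_TILS against Tfh_OTII, beside 6.75% and 6.84% of all genes tested. Against Th1_Vitro 2 rose in Tfh_TILS, beside 10.2%, and 2 in Tfh_Vitro, beside 8.65%. With any 1 library left out, 1 to 2 rose in Tfh_TILS against Tfh_OTII. Against Th1_Vitro it was 2 to 3 in Tfh_TILS and 0 to 2 in Tfh_Vitro. Over all genes tested, the Tfh_TILS fits called 808 to 1375 higher after scaling against Tfh_OTII and 1525 to 2361 against Th1_Vitro. With all libraries these were 1621 and 2378. Cyp1a1, the classical AHR target that breaks down its ligands, had 6.31, 3.23 and 5.79 TPM in Tfh_TILS, 1.62, 0.515 and 0.591 TPM in Tfh_OTII, 2.01, 1.26 and 3.13 TPM in Tfh_Vitro, and 0.373, 0.0521 and 0 TPM in Th1_Vitro. Cyp1a1 and Ahr both lay highest in Tfh_TILS. Ahrr, the AHR repressor, rose in Tfh_Vitro against Th1_Vitro by 2.84 ± 0.56 (limma adjusted p = 0.00172). Its scaled call was lost without Tfh_Vitro replicate 2 or 3 (adjusted p = 0.0945 and 0.112) or Th1_Vitro replicate 2 or 3 (0.0581 and 0.0795). Hsp90ab1, a chaperone of AHR and of many other proteins, fell in Tfh_TILS against Tfh_OTII by 1.80 ± 0.32 (adjusted p = 0.00264).

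Of 9 tested genes linked to Th17 effector and pathogenic states, 6 rose in Tfh_TILS against Th1_Vitro, beside 10.2% of all genes tested. Without Tfh_TILS replicate 2 the count was 3, the chemokine receptor genes Ccr2, Ccr4 and Cxcr6, and without Th1_Vitro replicate 3 it was also 3. Over all genes tested, calls higher after scaling went from 2378 to 1525 and to 1989 in those fits. Monocytes also express Ccr2 and macrophages Maf, and the part of the myeloid transcripts in those 2 results was not tested. Of 6 tested genes for IL-17 and IL-22 receptors and their signalling, none was called on both scales in any comparison. By limma all 6 were called higher as deposited in Tfh_TILS against Th1_Vitro, where 49.3% of all genes were, and 0 of them reached an unadjusted p under 0.05 after scaling. Of 11 genes that restrain the programme, 4 rose in Tfh_TILS against Th1_Vitro, Foxp3, Bcl6, Ets1 and Gata3, beside 10.2% of all genes. Ets1 was not called on both scales without Tfh_TILS replicate 2. Foxp3, the factor of regulatory T cells, had 54.1, 147 and 74.4 TPM in Tfh_TILS, 2.19, 2.04 and 1.66 TPM in Tfh_OTII, 28.6, 12.9 and 31.7 TPM in Tfh_Vitro, and 0.626, 0.547 and 1.53 TPM in Th1_Vitro. As deposited, Foxp3 ordered the groups as Rora did. All 8 regulatory T cell markers exceeded 1 TPM in every library of both Tfh cultures and of Tfh_TILS. They summed to 997 to 1908 TPM in Tfh_TILS and 820 to 857 TPM in Tfh_OTII. In Tfh_Vitro they summed to 781 to 1030 TPM and in Th1_Vitro to 178 to 302 TPM. Their part in the differences of the 8 genes was not tested.

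Cells other than conventional CD4+ T cells also make these cytokines. The 9 markers of γδ and innate-like T cells summed to 9.88 to 11.1 TPM in Tfh_TILS, 58.4 to 75.2 TPM in Tfh_OTII, 10.7 to 15.8 TPM in Tfh_Vitro and 3.49 to 5.88 TPM in Th1_Vitro. Trdv4 was at 0 in all Th1_Vitro libraries, and no marker of the list was at 0 throughout another group. The 8 innate lymphoid cell markers summed to 131 to 308 TPM in Tfh_TILS, with replicate 2 highest, and 78.0 to 86.4 TPM in Tfh_OTII. They summed to 124 to 156 TPM in Tfh_Vitro and 44.6 to 55.1 TPM in Th1_Vitro. The part of γδ, innate-like and innate lymphoid cells in the levels of Rora and the cytokine genes was not tested.

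**Figure D4:**
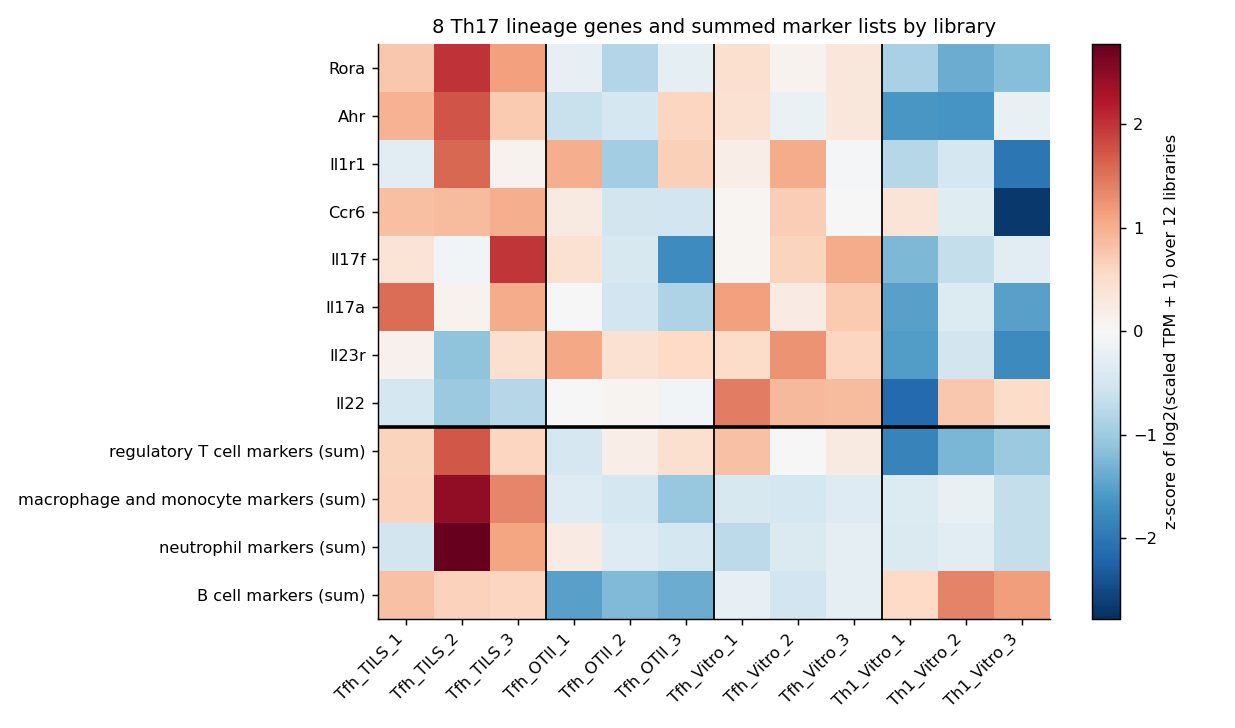
Colours give z-scores over the 12 libraries of log2(scaled TPM + 1) for the 8 genes (above the line) and for summed marker lists (below it). Tfh_TILS replicate 2 is deepest red for Rora and Ahr and for the macrophage and neutrophil sums, and blue for Il22 and Il23r.

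The genes whose profile over the 12 libraries lay nearest to each of 6 members were found by the mean absolute difference of z-scores among 15844 genes, as a description. Rora lay nearest to Emp1 (0.170), Osbpl3 (0.187) and Lamc1 (0.200), and Il17a to Stc2 (0.248), Ccr4 (0.258) and Slc7a15 (0.265). Il17f lay nearest to Ano4 (0.301), Nrg2 (0.337) and Krt79 (0.359), and Il22 to Rflnb (0.348), the type 2 cytokine gene Il13 (0.351) and Tshz1 (0.392). Ccr6 lay nearest to Pla2g4a (0.291), Opcml (0.315) and Vmn2r55 (0.320), and Ahr to Zfp831 (0.218), Fryl (0.224) and Rnf216 (0.235). Between members, Rora was 0.395 from Ahr, 0.587 from Il17a and 1.24 from Il22. No member was among the 3 nearest genes of another.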

How the data were processed

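Total RNA depleted of ribosomal RNA was sequenced as stranded libraries with paired reads of 75 bases, per the labels' protocols. The authors deposited TPM per gene symbol for each of the 12 libraries, and kallisto and mm10 are named in the submitters' processing notes, with versions and annotation not given in the sources used here. TPM keep no read depth, so the counts behind each value are unknown and no counting error can be given. A TPM of a gene that overlaps another or has close copies may hold reads of both.

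A gene was tested if its mean reached 1 TPM in any group (23308 of 35492 symbols, all 8 members included). The test was limma 3.58.1 in R 4.3.3 on log2(TPM + 1), with a mean for each of 4 groups and a trended prior, and p-values were adjusted by Benjamini-Hochberg over all genes tested. The 6 comparisons share groups. The fit was repeated on values divided by median-of-ratios factors from 17585 genes above 0 in every library. The fit was also run with trimmed-mean-of-M-values factors computed from the TPM, other filters and pseudocounts, a replicate block, and each library left out. A scaling on Cd3d, Cd3e and Cd3g was added after the data were seen. Deviations from the group mean correlated at -0.386 to 0.303 over 18 pairs of same-numbered libraries of different groups. Libraries with other numbers correlated at -0.277 to 0.358, so the numbers gave no sign of pairing, and the labels do not state one. No 2 libraries were identical.

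The 8 genes and all lists were chosen with earlier results of these data known. From each list, up to 3 genes highest and 3 lowest among those called on both scales could be named. In addition, the 3 genes nearest in profile to each member with a group mean of at least 5 TPM were named. 1 transcription factor is not reported here and was left out of its list. Gene coordinates come from GENCODE M21 (GRCm38, the assembly behind mm10), matched by symbol, and promoters from RefSeq. Tables were handled in Python 3.11.15 with pandas 2.3.3.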

Additional observations from a re-analysis of the deposited data

How the results depend on the processing

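Against Th1_Vitro, scaling moved the number of the 8 genes called by limma most among the settings run. As deposited it was 7 in Tfh_TILS, with 4 after median-of-ratios scaling, 4 after trimmed-mean scaling and 2 relative to the CD3 chain genes. In Tfh_OTII it was 5, with 1, 1 and 0 on those scales, 3 without a filter and 3 when only the 2 groups compared entered the fit. In Tfh_Vitro it was 8, with 3, 3 and 1 on those scales. Tfh_TILS against Tfh_OTII gave 2, and 1 with trimmed-mean scaling, with a pseudocount of 0.1 or with only the 2 groups. Tfh_TILS against Tfh_Vitro gave 0, and 1 (Il22, lower) with a filter at 5 TPM or only the 2 groups. Tfh_OTII against Tfh_Vitro gave 0, and 1 (Il22, lower) with only the 2 groups. With 1 library left out, the counts for Tfh_TILS were 6 to 7 (2 to 5 scaled) against Th1_Vitro, 1 to 2 (1 to 2) against Tfh_OTII and 0 to 1 (0 to 0) against Tfh_Vitro. They were 3 to 6 (0 to 1) for Tfh_OTII against Th1_Vitro, 0 to 0 (0 to 0) against Tfh_Vitro, and 7 to 8 (1 to 4) for Tfh_Vitro against Th1_Vitro.

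Signs turned where limma made a call as deposited or in the other setting. Relative to the CD3 chain genes, Tfh_OTII against Th1_Vitro gave -0.27 for Rora, -0.30 for Ccr6, -0.40 for Ahr and -0.090 for Il1r1, and Tfh_Vitro against Th1_Vitro gave -0.15 for Il17f and -0.051 for Ahr. On scaled values without Th1_Vitro replicate 3, Ccr6 was -0.28 in Tfh_OTII against Th1_Vitro. Il22 in Tfh_TILS against Th1_Vitro, not called as deposited, was called at -1.58 on scaled values without Th1_Vitro replicate 1. Over all genes tested, the median relative to the CD3 chain genes was -0.66 in Tfh_OTII and -0.50 in Tfh_Vitro against Th1_Vitro. The cause of the turned signs was not tested.

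Over all genes, calls as deposited against Th1_Vitro were 11501 higher and 140 lower in Tfh_TILS, 9956 and 270 in Tfh_OTII, and 9569 and 119 in Tfh_Vitro. After median-of-ratios scaling they were 2378 and 1630, 2855 and 1811, and 2015 and 1181. After trimmed-mean scaling they were 2668 and 1282, 3428 and 1346, and 2612 and 750. Relative to the CD3 chain genes, 1286 and 4993 were called in Tfh_TILS, 1024 and 8724 in Tfh_OTII, and 937 and 7134 in Tfh_Vitro. Tfh_TILS against Tfh_Vitro gave 489 calls, with 262 at a pseudocount of 0.1, 131 with only the 2 groups and 94 to 883 with 1 library left out. Tfh_OTII against Tfh_Vitro gave 555, with 359, 2672 and 144 to 456, and 163 relative to the CD3 chain genes. Tfh_TILS against Tfh_OTII gave 3556, and 2000 to 3324 with 1 library left out.

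A replicate block, for numbers that gave no sign of pairing the libraries, took the calls over all genes between Tfh_TILS and Tfh_Vitro to 279. Among the 8 genes it ended the deposited calls of Il23r in Tfh_TILS (adjusted p = 0.0543) and of Il1r1 in Tfh_OTII and Tfh_Vitro (0.0577 and 0.0552) against Th1_Vitro. Depth is unknown, so low values such as those of Il23r and Il1r1 have no counting interval.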
